A study of Mus musculus with 6 samples.

Results

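The genes described are the 4 PDGF ligand genes Pdgfa, Pdgfb, Pdgfc and Pdgfd, the 2 receptor genes Pdgfra and Pdgfrb, and 3 genes used as pericyte markers, Rgs5, Cspg4 and Mcam. They were listed by name, and all 9 were found by their Ensembl identifiers among the 47729 genes of the count files. Bulk RNA-seq was performed on CD144-enriched cells, a fraction selected with magnetic beads against VE-cadherin so as to enrich endothelial cells (ECs), from ischemic muscle. All mice were fed a high-fat, high-sucrose (HFHS) diet. All mice had hind limb ischemia surgery on day 0. The labels place intramuscular adenovirus injections on days 1 and 4 and the harvest 1 week after surgery. In the study's methods, which name the gastrocnemius, the second injection is dated later. WT + GFP are WT mice given a vector for GFP alone. KO + GFP are Leene-knockout mice given the same vector, and KO + LEENE are knockout mice given a vector for human LEENE tagged by GFP (LEENE OE). The knockout is a germline CRISPR/Cas9 deletion of the Leene region made in C57BL/6J embryos, so Leene is lost from every cell type, and the vector is not said to be limited to ECs. The labels give no age. Each group had 2 libraries, and nothing in the labels says that they came from separate mice. In the headers of the count files, the 6 libraries carry only 3 sample numbers, 1 for both libraries of a group, so P values measure the spread between these libraries, which may be technical.

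Platelet-derived growth factors are dimeric ligands that bind the receptor tyrosine kinases PDGFRα and PDGFRβ. PDGF-A and PDGF-C act mainly through PDGFRα, PDGF-D acts through PDGFRβ, and PDGF-B binds both. In growing vessels PDGF-B made by ECs is held near the cell surface by heparan sulfate and recruits pericytes, mural cells that carry PDGFRβ. In skeletal muscle, PDGFRα marks fibro-adipogenic progenitors, which are mesenchymal cells of the interstitium.

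The libraries held 1770992 to 5602603 reads assigned to genes, with the smallest totals in KO + LEENE. A count of 3 reads, taken as the floor, was 0.535 to 1.69 CPM (counts scaled to a common library total). Mitochondrially encoded genes took 50.1% and 50.9% of reads in WT + GFP and 33.6% to 34.3% in the other 4 libraries. The 3 groups stood far apart: between 67.8% and 70.7% of all 8903 genes tested were DEGs (adjusted P under 0.05, edgeR) in each of the 3 contrasts, whereas the median squared difference between libraries of 1 group was 1.18 to 1.24 times counting noise. Over all genes compared, chi-square per degree of freedom was 10 between the WT + GFP libraries, 1.38 in KO + GFP and 1.2 in KO + LEENE, so libraries of 1 group also differed by more than counting noise. CPM values below are scaled with the TMM method, whose factors ran from 0.660 to 1.52. Without these factors the median gene had a log2 fold change that was -0.57 rather than -0.088 for KO + GFP against WT + GFP, 1.07 rather than -0.010 for KO + LEENE against KO + GFP, and 0.50 rather than -0.11 for KO + LEENE against WT + GFP. The split of higher and lower DEGs in these contrasts moved with it, from 3045 and 3194 to 2639 and 3937, from 2924 and 3111 to 4474 and 2189, and from 3014 and 3281 to 3869 and 2588. The deleted genes, human LEENE and GFP were not analysed here, so the genotype labels were not checked against them. The EC markers did not move as a set, as seen in genes of which Cdh5, Pecam1 and Vwf were chosen after their values were seen. Cdh5, the gene for VE-cadherin itself, had 196 to 332 reads in WT + GFP and KO + GFP but 5 and 18 in KO + LEENE, whereas Kdr went from 808 and 708 reads (WT + GFP) to 13 and 9 (KO + GFP), Pecam1 had 89 to 211 reads in all 6 libraries, and Vwf was highest in KO + LEENE with 317 and 340. Genes of 1 cell type thus went opposite ways and a signaling gene such as Crkl went from 3717 reads to 2. Whether the count files of the 3 groups differ in more than genotype and vector was not tested, and every fold change between groups given here carries that limit.

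To ask which of the 9 genes differed with loss of Leene and with LEENE OE, each was compared between groups in one model fitted over all genes. Mcam was high in KO + GFP alone, Rgs5 rose in KO + GFP and was highest in KO + LEENE, and Pdgfb was lowest in KO + GFP and highest in KO + LEENE. The calls of Rgs5 and Pdgfb in KO + GFP against WT + GFP were both lost without the first KO + GFP library (adjusted P = 0.214 and 0.104, edgeR). Pdgfra was lower in KO + LEENE than in either other group, and no difference was called for Pdgfa. For Pdgfa and Pdgfra these calls changed with library size only, and the call of Pdgfra against KO + GFP was made in 8 of 14 alternative settings, 1 of them with the opposite sign. The genes Pdgfc, Pdgfd, Pdgfrb and Cspg4 never exceeded 10 reads in a library and did not pass the filter on low counts, which left 5 of 9 genes tested. Among them, Rgs5 passed only through KO + LEENE and Mcam only through KO + GFP. This limits the tests of Rgs5 in KO + GFP against WT + GFP and of Mcam in KO + LEENE against WT + GFP. In KO + GFP against WT + GFP, 3 of these 5 were DEGs, 2 higher and 1 lower, where 70.1% of all genes were DEGs, with 34.2% higher and 35.9% lower. For KO + LEENE against KO + GFP, 4 of 5 were DEGs, 2 in each direction, against 67.8% of all genes (32.8% higher and 34.9% lower). In KO + LEENE against WT + GFP, 3 of 5 were DEGs, 2 higher and 1 lower, against 70.7% of all genes (33.9% higher and 36.9% lower). A share of 3 or 4 genes in 5 is near these backgrounds, so the count of calls is no result about the 9 genes, and the values of each gene carry the description. The members called with library size only were 5 (2 higher, 3 lower), 5 (4 higher, 1 lower) and 3 (3 higher, 0 lower) in the same contrasts. The libraries of the compared groups did not overlap in CPM for 4, 5 and 4 of the 5 genes in these contrasts, and for 82.2%, 80.3% and 83.6% of all genes. The KO + GFP libraries enter both the first and the second of these contrasts.

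**Figure D1:**
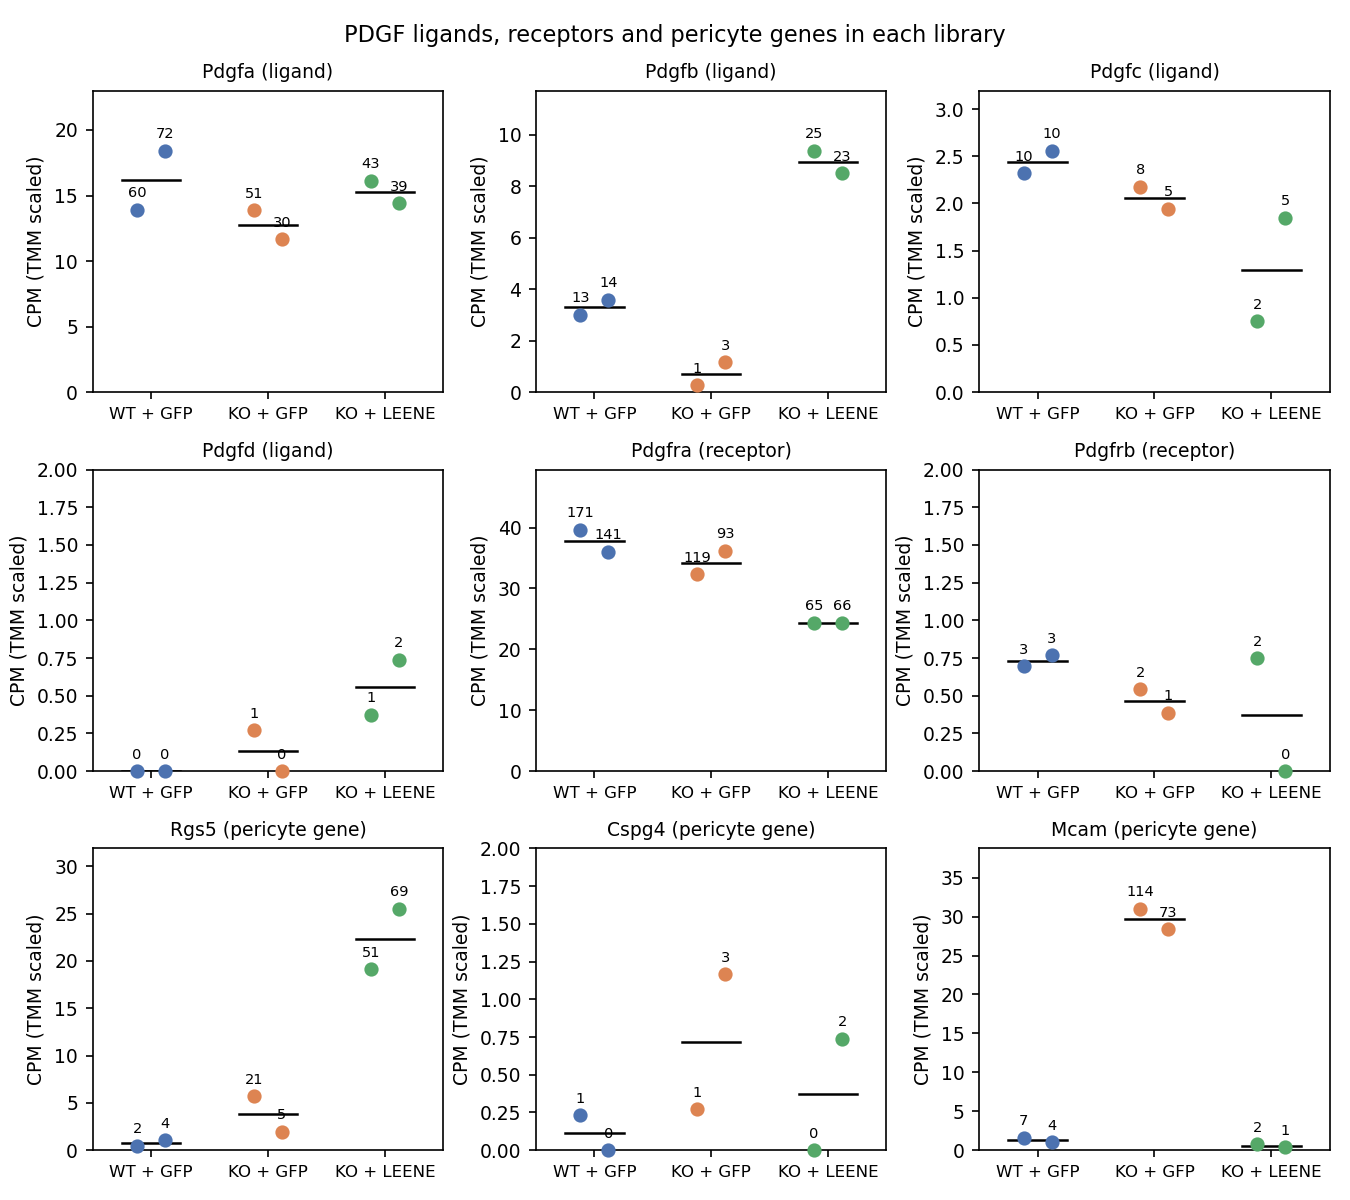
Level of each of the 9 genes in each of the 6 libraries, in CPM after TMM scaling on a linear axis from 0, with 1 dot per library, the read count beside each dot and a bar at the mean of the 2 libraries. Mcam stands at 28.4 and 31.0 CPM in KO + GFP and at most 1.62 elsewhere, Rgs5 at 19.1 and 25.5 CPM in KO + LEENE and at most 5.71 elsewhere, and Pdgfrb and Cspg4 have at most 3 reads in any library.

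Pdgfa (ENSMUSG00000025856; GRCm38 chromosome 5, 138976014 to 138997370, minus strand) encodes the A chain, a ligand of PDGFRα, and had the most reads of the 4 ligands. The WT + GFP libraries had 60 and 72 reads, the KO + GFP libraries 51 and 30, and the KO + LEENE libraries 43 and 39. Scaled to depth these were 13.9 and 18.4 CPM, 13.9 and 11.7 CPM, and 16.1 and 14.4 CPM, respectively. The KO + LEENE libraries lay inside the range of WT + GFP, and the higher KO + GFP library was just under the lower WT + GFP library. The log2 fold change was -0.31 ± 0.233 (SE) for KO + GFP relative to WT + GFP (edgeR, adjusted P = 0.232), 0.24 ± 0.257 in KO + LEENE against KO + GFP (adjusted P = 0.426) and -0.074 ± 0.233 in KO + LEENE against WT + GFP (adjusted P = 0.80). With library size only the values were -0.80, 1.39 and 0.60 (adjusted P = 0.000893, 2.34e-07 and 0.0177), all of them called, and the third had turned sign. By pooled reads, the level in KO + GFP was 0.808 times that in WT + GFP, with a 95% interval of 0.605 to 1.07 that covers counting error only. Of all genes tested, 11.2% had a smaller change than Pdgfa in the first contrast, where the median size of a change was 2.09 on the log2 scale. The same share was 52.9% for Pdgfb, 55.1% for Rgs5 and 75.3% for Mcam in that contrast, 67.8%, 53.6% and 82.5% in KO + LEENE against KO + GFP, and 38.4% for Pdgfb and 79.5% for Rgs5 in KO + LEENE against WT + GFP, so changes of their size were common among all genes. An antisense gene, 6330403L08Rik, shares 813 exon bases with Pdgfa and had at most 4 reads, and the counting did not use strand.

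Pdgfb (ENSMUSG00000000489; chromosome 15, 79995900 to 80014808, minus strand) encodes the B chain, the ligand through which ECs recruit pericytes. The WT + GFP libraries had 13 and 14 reads, the KO + GFP libraries 1 and 3, and the KO + LEENE libraries 25 and 23. In the same order these were 3.01 and 3.58 CPM, 0.272 and 1.17 CPM, and 9.37 and 8.5 CPM. The 3 groups did not overlap, with KO + GFP at or under the floor of 3 reads and KO + LEENE above WT + GFP. The log2 fold change was -2.29 ± 0.684 for KO + GFP relative to WT + GFP (edgeR, adjusted P = 0.00142), 3.72 ± 0.579 in KO + LEENE against KO + GFP (adjusted P = 4.81e-10) and 1.43 ± 0.378 in KO + LEENE against WT + GFP (adjusted P = 0.000288). From the pooled reads the level in WT + GFP was 5.13 times that in KO + GFP, with a counting interval of 1.79 to 20.2, and that in KO + LEENE was 14.0 times it, with an interval of 5.11 to 53.3. Between KO + LEENE and WT + GFP the ratio was 2.72 (1.66 to 4.54). The fall in KO + GFP rested on 4 reads in that group: without the first KO + GFP library its log2 fold change was -1.44 and the adjusted P was 0.104, so it was no longer called. Without the second KO + GFP library it was -3.41. The rise in KO + LEENE over KO + GFP was 2.88 without the first KO + GFP library, 4.85 without the second and 4.85 with library size only, and the difference from WT + GFP was 2.10 with library size only. Both of these contrasts of Pdgfb were called in 14 of 14 alternative settings.

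Set against Pdgfa in the same library, a ratio that no scaling between libraries can change, Pdgfb had 21.7 and 19.4 reads per 100 Pdgfa reads in WT + GFP. For KO + GFP the ratio was 1.96 and 10.0, and for KO + LEENE it was 58.1 and 59.0. The lowest KO + LEENE bound on this ratio, 33.6, lay above the KO + GFP upper bounds of 11.4 and 32.2. As a share of all PDGF ligand reads, Pdgfb made 15.7% and 14.6% in WT + GFP, compared with 1.64% and 7.89% in KO + GFP and then 35.2% and 33.3% in KO + LEENE. Pdgfa made most of the ligand reads in every library, with 72.3% and 75.0%, 83.6% and 78.9%, and 60.6% and 56.5% in the 3 groups. The 95% Wilson intervals of the Pdgfb share were 8.89% to 23.0% in the second WT + GFP library, 2.72% to 20.8% in the second KO + GFP library and 23.4% to 45.1% in the second KO + LEENE library. The points of the 3 groups did not overlap in the Pdgfb share. The WT + GFP and KO + GFP intervals of these second libraries overlapped, while those of the first libraries, from 9.39% upward and from 0.290% to 8.72%, did not. Summed over the 4 ligands, the level was 19.2 and 24.5 CPM in WT + GFP, compared with 16.6 and 14.8 in KO + GFP and then 26.6 and 25.5 in KO + LEENE. The order of these sums was the same with library size only, but the knockout groups lay further apart, at 10.9 and 10.5 CPM for KO + GFP against 40.1 and 38.5 for KO + LEENE, with 18.3 and 23.3 for WT + GFP.

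The other ligands had few reads, Pdgfd none above the floor. Pdgfc (ENSMUSG00000028019; chromosome 3, 81036416 to 81214040), whose product is secreted as a latent protein that must be cut by a protease, gave 10 reads in each WT + GFP library, 8 and 5 in the KO + GFP libraries, and 2 and 5 in the KO + LEENE libraries. The level in KO + GFP was 0.856 times that in WT + GFP (0.391 to 1.81, counting error only), and that in KO + LEENE was 0.536 times it (0.191 to 1.32), or 0.851 times (0.304 to 2.09) with library size only, when these groups overlapped. A difference was not detectable at this depth. Pdgfd (ENSMUSG00000032006; chromosome 9, 6168612 to 6378843), the ligand of PDGFRβ that is also activated by cleavage, had 0 reads in both WT + GFP libraries and in 1 KO + GFP library, 1 read in the other, and 1 and 2 reads in KO + LEENE. No library passed the floor of 3 reads, so no fold change is given for Pdgfd.

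**Figure D2:**
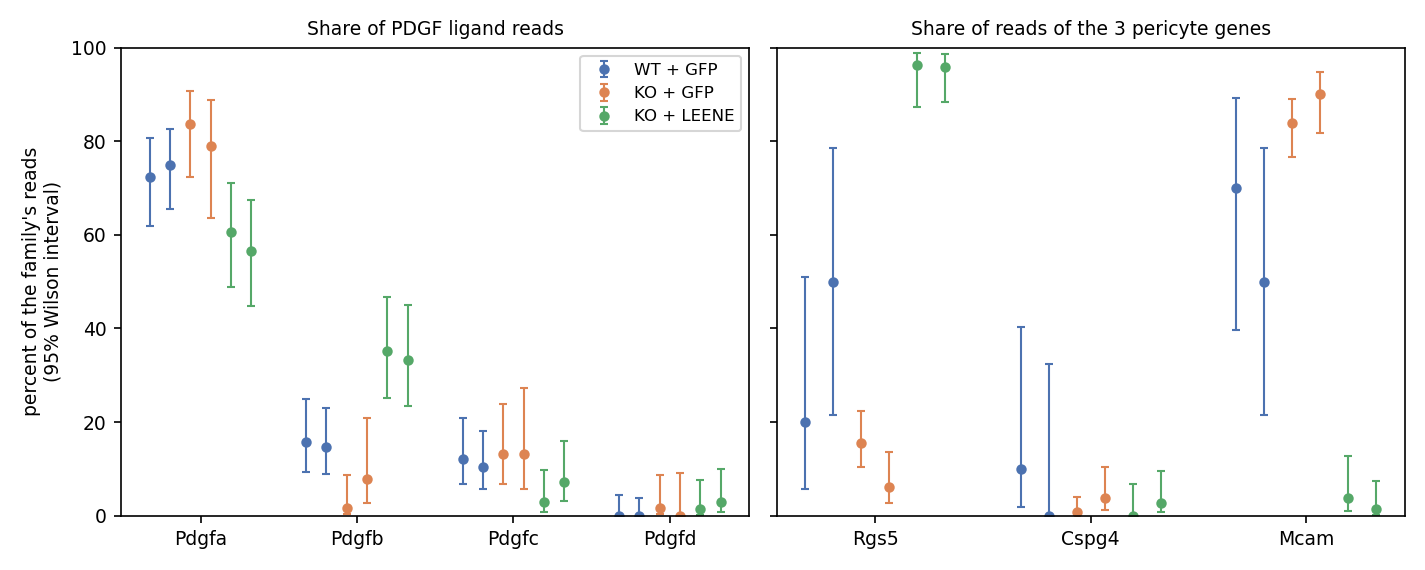
Share of each gene among the reads of the 4 PDGF ligand genes (left) and of the 3 pericyte genes (right) in each library, in percent, with 1 point per library and its 95% Wilson interval, which covers counting error only. Pdgfb rises from 1.64% and 7.89% in KO + GFP to 35.2% and 33.3% in KO + LEENE, while among pericyte genes Mcam leads in KO + GFP (83.8% and 90.1%) and Rgs5 in KO + LEENE (96.2% and 95.8%).

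Of the receptors, Pdgfra (ENSMUSG00000029231; chromosome 5, 75152292 to 75198215, plus strand) gave 171 and 141 reads in the WT + GFP libraries, 119 and 93 in those of KO + GFP, and 65 and 66 in those of KO + LEENE. These were levels of 39.6 and 36.1 CPM, then 32.4 and 36.2 CPM, and 24.4 CPM in both KO + LEENE libraries. WT + GFP and KO + GFP overlapped, and both KO + LEENE libraries were below the other 4. The log2 fold change was -0.16 ± 0.154 for KO + GFP relative to WT + GFP (edgeR, adjusted P = 0.368), and only 6.44% of all genes tested had a smaller change. It was -0.48 ± 0.184 in KO + LEENE against KO + GFP (adjusted P = 0.0148) and -0.64 ± 0.172 in KO + LEENE against WT + GFP (adjusted P = 0.000397). These falls depended on the scaling: with library size only, the log2 fold change was 0.68 against KO + GFP (adjusted P = 0.000439) and 0.033 against WT + GFP (adjusted P = 0.882). Relative to the shift of the median gene under library size, which was 1.07 and 0.50, both values stayed below that median. The call against KO + GFP was also lost without the second KO + GFP library (-0.42, adjusted P = 0.0652), without the first KO + LEENE library (-0.43, adjusted P = 0.0953) and without the second (-0.43, adjusted P = 0.0962).

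Pdgfrb (ENSMUSG00000024620; chromosome 18, 61045150 to 61085061), the receptor by which pericytes receive PDGF-B and one of their defining markers, was almost absent. The WT + GFP libraries had 3 and 3 reads, the KO + GFP libraries 2 and 1, and the KO + LEENE libraries 2 and 0. No library passed the floor, so no fold change is given for Pdgfrb, and Pdgfra made 97.0% to 100% of receptor reads in the 6 libraries.

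The 3 pericyte genes did not move together. Mcam (ENSMUSG00000032135; chromosome 9, 44134469 to 44142727, plus strand) encodes CD146, an adhesion molecule of pericytes, smooth muscle and also ECs. The WT + GFP libraries had 7 and 4 reads, the KO + GFP libraries 114 and 73, and the KO + LEENE libraries 2 and 1. These were 1.62 and 1.02 CPM, 31.0 and 28.4 CPM, and 0.749 and 0.370 CPM, respectively. The KO + GFP libraries stood far above the other 4, and the KO + LEENE libraries were both under the floor. Mcam rose in KO + GFP by 4.44 ± 0.327 on the log2 scale (adjusted P = 2.31e-38, edgeR), and the pooled level was 22.4 times that of WT + GFP (12.2 to 45.6). Against KO + GFP, the log2 fold change in KO + LEENE was -5.65 ± 0.446 (adjusted P = 8.23e-34), and KO + GFP had 53.6 times the level of KO + LEENE, with a counting interval of 18.1 to 262. With library size only the log2 fold change was -4.53. KO + LEENE and WT + GFP were not told apart (log2 fold change -1.21 ± 0.907, adjusted P = 0.230), with a ratio of 0.417 (0.0748 to 1.58). Mcam was tested between these groups only because its reads in KO + GFP carried it past the filter. The gene Gm10687 lies on the opposite strand and shares 17 exon bases with Mcam, and its reads followed another order, with 83 and 80 for WT + GFP but 12 and 3 for KO + GFP, then 6 and 9 for KO + LEENE.

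Mcam was also set against Cdh5, the EC gene whose product the beads bind. It had 2.11 and 1.41 reads per 100 Cdh5 reads for WT + GFP, against 35.4 and 37.2 for KO + GFP. In KO + LEENE the ratio was 40.0 and 5.56, on 2 and 1 Mcam reads, with counting intervals of 3.81 to 244 and 0.133 to 35.2 that do not fix it. Within KO mice the ratio of Mcam to Cdh5 was therefore not resolved, although both genes had fewer reads in KO + LEENE.

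Rgs5 (ENSMUSG00000026678; chromosome 1, 169655501 to 169695813, plus strand) encodes a regulator of G protein signaling that is abundant in pericytes. The WT + GFP libraries had 2 and 4 reads, the KO + GFP libraries 21 and 5, and the KO + LEENE libraries 51 and 69. These were 0.463 and 1.02 CPM, 5.71 and 1.94 CPM, and 19.1 and 25.5 CPM. The groups did not overlap, and the KO + GFP libraries lay between the other groups but differed from each other by a factor of 2.94, with a counting interval of 1.08 to 9.97. Between WT + GFP and KO + GFP, Rgs5 was tested only because its reads in KO + LEENE carried it past the filter. With that limit, Rgs5 rose in KO + GFP by 2.45 ± 0.606 (log2 scale, adjusted P = 0.000104, edgeR), a ratio of 5.70 (2.30 to 16.9). That call was lost without the first KO + GFP library, when the log2 fold change was 1.39 and the adjusted P was 0.214, and without the second WT + GFP library the value was 3.03. In KO + LEENE it was higher still, by 2.42 ± 0.306 against KO + GFP (adjusted P = 2.06e-14) and by 4.87 ± 0.408 against WT + GFP (adjusted P = 2.44e-30). The corresponding ratios were 5.37 (3.49 to 8.55) and 30.6 (13.7 to 85.1), and both differences were called in 14 of 14 alternative settings. The first was 3.48 on the log2 scale without the first KO + GFP library and 3.57 with library size only, and the second was 5.46 without the second WT + GFP library and 5.54 with library size only. Per 100 Pdgfra reads of the same library, Rgs5 had 1.17 and 2.84 reads in WT + GFP, compared with 17.6 and 5.38 in KO + GFP and then 78.5 and 105 in KO + LEENE.

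Cspg4 (ENSMUSG00000032911; chromosome 9, 56865104 to 56899870) encodes NG2, a proteoglycan on the surface of pericytes. The WT + GFP libraries had 1 and 0 reads, the KO + GFP libraries 1 and 3, and the KO + LEENE libraries 0 and 2. No library passed the floor, so Cspg4 gave no fold change. In sum over the 3 pericyte genes, the level was 2.32 and 2.05 CPM in WT + GFP, compared with 37.0 and 31.5 in KO + GFP and then 19.9 and 26.6 in KO + LEENE. With library size only the order of the knockout groups turned, to sums of 24.3 and 22.3 for KO + GFP against 29.9 and 40.2 for KO + LEENE. With either scaling both knockout groups were above WT + GFP in this sum, but through different genes, since Mcam made 83.8% and 90.1% of it in KO + GFP and Rgs5 made 96.2% and 95.8% in KO + LEENE.

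**Figure D3:**
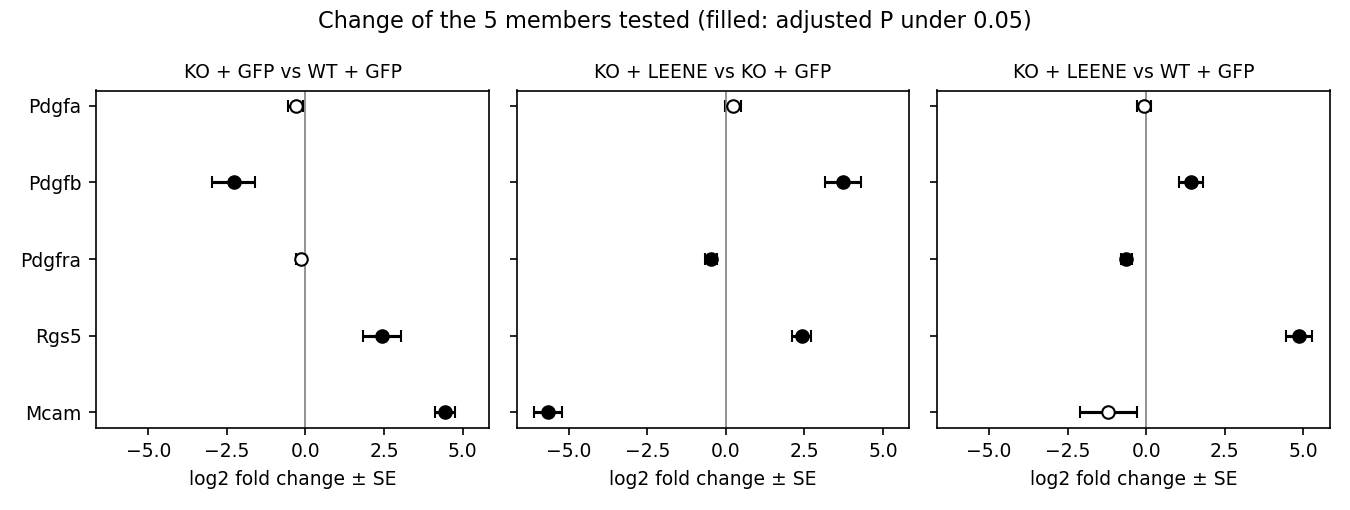
Log2 fold change with its SE (edgeR, all 6 libraries in one fit) of the 5 genes tested in each of the 3 contrasts, with filled points for an adjusted P under 0.05. Mcam and Pdgfb have opposite signs in KO + GFP against WT + GFP and in KO + LEENE against KO + GFP (4.44 and -5.65, -2.29 and 3.72), while Rgs5 is positive in all 3 contrasts and Pdgfa lies near 0 with this scaling.

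Per kilobase of exon, a scale on which levels of different genes can be set side by side only roughly because the kit reads 3′ ends, the order of the genes differed between groups. In CPM, without division by length, Pdgfra led in every group, at 37.8 ± 2.53 in WT + GFP ahead of Pdgfa (16.2 ± 3.19), at 34.3 ± 2.69 in KO + GFP ahead of Mcam (29.7 ± 1.85) and at 24.4 ± 0.0284 in KO + LEENE, where it overlapped Rgs5 (22.3 ± 4.52), so the order per kilobase rests on the exon length. Per kilobase, in WT + GFP Pdgfa was highest at 5.18 ± 1.02 CPM per kilobase (SD, n = 2), followed by Pdgfra at 3.77 ± 0.252, Pdgfb at 1.13 ± 0.137 and Pdgfc at 0.479 ± 0.0333, and Pdgfc and Mcam overlapped. In KO + GFP Mcam led at 8.86 ± 0.552, ahead of Pdgfa at 4.09 ± 0.50, Pdgfra at 3.42 ± 0.268 and Rgs5 at 0.842 ± 0.586. Every neighboring pair below Pdgfc in that order overlapped. In KO + LEENE Rgs5 (4.91 ± 0.995) and Pdgfa (4.89 ± 0.385) overlapped at the top, followed by Pdgfb at 3.06 ± 0.210 and Pdgfra at 2.43 ± 0.00284. From Pdgfc downward each gene of KO + LEENE overlapped its neighbor in the order.

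The promoters of Mcam and Rgs5 are shown because these pericyte genes had the largest changes of the genes tested, Mcam in both contrasts with KO + GFP and Rgs5 in KO + LEENE against WT + GFP. Each sequence is the 250 bases before the RefSeq transcription start on GRCm38.p6, plus strand, with GGGCGG, or its reverse complement CCGCCC, in capitals. The Mcam stretch is at chr9:44134408-44134657, and its RefSeq start is 189 bases inside the gene as annotated in the count files. The Rgs5 stretch is at chr1:169655251-169655500.
Mcam: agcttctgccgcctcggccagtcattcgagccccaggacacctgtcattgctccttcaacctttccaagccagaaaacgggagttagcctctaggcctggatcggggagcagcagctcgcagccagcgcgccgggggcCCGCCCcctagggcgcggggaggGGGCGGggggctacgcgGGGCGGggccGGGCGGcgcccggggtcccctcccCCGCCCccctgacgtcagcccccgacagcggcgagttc
Rgs5: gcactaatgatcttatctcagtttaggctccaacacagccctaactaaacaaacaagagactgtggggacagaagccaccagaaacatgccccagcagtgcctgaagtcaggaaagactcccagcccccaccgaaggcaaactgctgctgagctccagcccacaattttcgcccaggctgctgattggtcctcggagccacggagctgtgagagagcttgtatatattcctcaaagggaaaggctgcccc

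Mcam held 5 of these GC boxes and Rgs5 held 0, over the 300 bases from 250 before to 50 after the start. Their GC contents in that window were 72.7% and 52.3%, beside a median of 52.7% over all promoters. A RefSeq promoter was read for 7 of the 9 genes, with 2 for Pdgfa. GGGCGG, on either strand, was present in 3 of the 7, Pdgfa, Mcam and Cspg4, and in 35.7% of all 32851 promoters of this length, or 38.2% counted per gene. CACGTG, the E-box that reads the same on both strands, was in 0 of 7 genes and in 7.15% of all promoters, or 8.09% counted per gene. TATAAA, on either strand, was found only in Pdgfd among the 7, and in 13.6% of all promoters, or 15.7% counted per gene. These matches describe letters in a window and do not show binding.

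For each tested gene, the 3 genes with the nearest profile over the 6 libraries were found by the root of the summed squared differences of centered log2 CPM. For Pdgfb these were Irf9, at a distance of 0.221, Gk5 (0.327) and Dhx30 (0.498). For Irf9, the WT + GFP libraries had 8 and 8 reads, the KO + GFP libraries 0 and 2, and the KO + LEENE libraries 17 and 16. The nearest to Mcam were Anapc1 (0.430), the processed pseudogene Gm11185 (0.437) and Vezf1 (0.453), and the nearest to Rgs5 were Slit1 (0.585), Acsm5 (0.629) and Col4a2 (0.737). Pdgfra lay closest to Tram1 (0.240), Ces1d (0.254) and Satb1 (0.256), and Pdgfa to Insig1 (0.203), Samtor (0.217) and the processed pseudogene Gm11371 (0.244). None of these nearest genes is another of the 9.

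A list of 42 genes of PDGF activation, co-receptors, signaling and attenuation was followed alongside, of which 34 were tested. In KO + GFP against WT + GFP, 11 rose and 13 fell, with a median log2 fold change of -0.68 against -0.088 over all genes. These 24 DEGs of 34 are near the background of 70.1%, and the 23 and 25 of the other contrasts near 67.8% and 70.7%, so the counts show nothing particular to the list. In KO + LEENE against KO + GFP, 9 rose and 14 fell (median -0.41 against -0.010), and in KO + LEENE against WT + GFP, 11 rose and 14 fell (median -0.68 against -0.11). The balance of directions turned with library size only, to 15 higher and 11 lower against KO + GFP and to 14 and 13 against WT + GFP, and was 11 and 17 in KO + GFP against WT + GFP. The 4 most abundant genes of the list were Hspg2, Nrp1, Crkl and Plau. Hspg2, which encodes the heparan sulfate proteoglycan perlecan, fell from 10948 and 10028 reads (WT + GFP) to 1272 and 818 (KO + GFP) and to 546 and 555 (KO + LEENE), but with library size only its level rose from KO + GFP to KO + LEENE (log2 fold change 0.45 in place of -0.70). In the same order of groups, the co-receptor Nrp1 went from 9647 and 8692 reads to 2769 and 1959 and to 9 and 4, and the adaptor Crkl from 3717 and 3485 to 2 and 3 and to 3 and 0. Plau, the urokinase protease, was lowest in KO + GFP, with 103 and 45 reads. WT + GFP had 496 and 437 and KO + LEENE 543 and 526, with log2 fold changes of -2.26 ± 0.126 (adjusted P = 1.38e-62, edgeR) and then 3.07 ± 0.121 (adjusted P = 8.53e-112). Furin, a protease that cuts PDGF-A and PDGF-B precursors and was singled out after its values were seen, rose through the groups from 14 and 9 reads (WT + GFP) to 32 and 19 (KO + GFP) and 142 and 136 (KO + LEENE).

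Markers of the cell types that such a fraction can hold were summed in each library, since in bulk RNA fewer cells of a type and less RNA per cell cannot be told apart. Of 20 other pericyte and smooth muscle markers, 15 had at most 6 reads in any library, among them Notch3, Kcnj8, Abcc9, Des, Acta2 and Tagln. The list summed to 485 to 492 CPM in WT + GFP, 387 to 409 in KO + GFP and 233 to 241 in KO + LEENE, and most of it came from Anpep, Ebf1 and, in KO + GFP, Mylk. With library size only the order of the knockout groups turned, with sums of 268 to 275 in KO + GFP and 352 to 365 in KO + LEENE. Of its 5 tested genes, Angpt1 and Mylk rose and Anpep fell in KO + GFP against WT + GFP. Against KO + GFP, Myh11 rose and Angpt1, Ebf1 and Mylk fell in KO + LEENE, and against WT + GFP Myh11 rose and Anpep and Ebf1 fell. Both falls of Ebf1, of -0.25 and -0.32 on the log2 scale, turned to 0.91 and 0.35 with library size only. Anpep in KO + LEENE against KO + GFP also turned, from -0.18 and not called to 0.97 and called. The calls, 3, 4 and 3 of 5 genes, lie near the backgrounds of 70.1%, 67.8% and 70.7%. For Myh11, a smooth muscle myosin, the reads were 2 and 4, 1 and 3, and 9 and 13. With Pdgfrb and Cspg4 at 3 reads or fewer, the defining pericyte markers were near 0 in every library, including the libraries with the highest Rgs5 and Mcam.

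Fibroblast, endothelial, macrophage and platelet lists, but not muscle fibre or Schwann cell lists, had their highest sum in KO + GFP and their lowest in KO + LEENE. Mcam was also highest in KO + GFP, but was not told apart between KO + LEENE and WT + GFP, which overlapped with library size only. Fibroblast and fibro-adipogenic progenitor markers summed to 463 to 493 CPM in WT + GFP, 22325 to 24280 in KO + GFP and 67.6 to 67.8 in KO + LEENE, where Dcn, Col3a1 and Col1a2 made most of the KO + GFP sum. Pdgfra, which marks such cells, did not follow, with 32.4 and 36.2 CPM in KO + GFP, and Lum, Ly6a, Dpp4, Cd34, Cxcl14 and Clec3b of the same list had at most 6 reads in any library. Fbn1, the fourth of the list by level, had 1850 and 1744 reads in WT + GFP and 12 to 30 in the other libraries. Endothelial markers summed to 996 to 1012 CPM, 4358 to 4469 and 230 to 235 in the 3 groups. Most of the KO + GFP sum was Emcn alone, at 3330 and 3363 CPM, which had 12245 and 8648 reads there and 7 to 14 elsewhere. In KO + GFP against WT + GFP, Tie1, Vwf and Robo4 also rose, whereas Pecam1, Kdr, Erg, Flt1 and Ptprb fell. Macrophage markers summed to 31.7 to 43.0, 1138 to 1285 and 9.24 to 11.6 CPM, and platelet markers to 3.84 to 3.94, 4153 to 4394 and 1.12 to 2.59, the latter through Pf4 alone, with 5 of 6 platelet markers at no more than 6 reads in any library. The macrophage sum in KO + GFP came from Adgre1, Mrc1, Lyz2 and Fcgr1, and 5 of 11 macrophage markers had at most 6 reads in any library. C1qb went the other way, from 32 and 37 reads in WT + GFP to 1 and 5 in KO + GFP. Platelet markers overlapped, with library size only, between KO + LEENE, at 1.69 to 3.91, and WT + GFP, at 3.64 to 3.75. Skeletal muscle fibre markers summed to 12.8 to 14.4, 61.8 to 67.4 and 42.1 to 45.0 CPM, and Schwann cell markers to 31.1 to 35.0, 6.80 to 7.0 and 1.5 to 4.07. The muscle fibre sum came mostly from Myh4 and Pvalb in KO + GFP but from Acta1 and Ttn in KO + LEENE. Ckm, Tnnt3, Tnnc2 and Mb of that list had at most 6 reads in any library. With library size only the order of the knockout groups turned for muscle fibre markers, to 43.9 to 44.3 in KO + GFP and 63.6 to 67.8 in KO + LEENE, and these groups overlapped for Schwann cell markers, at 4.46 to 4.96 and 2.26 to 6.14. The part of these cell types in the results for Mcam, Rgs5, Pdgfb and Pdgfra was not tested.

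**Figure D4:**
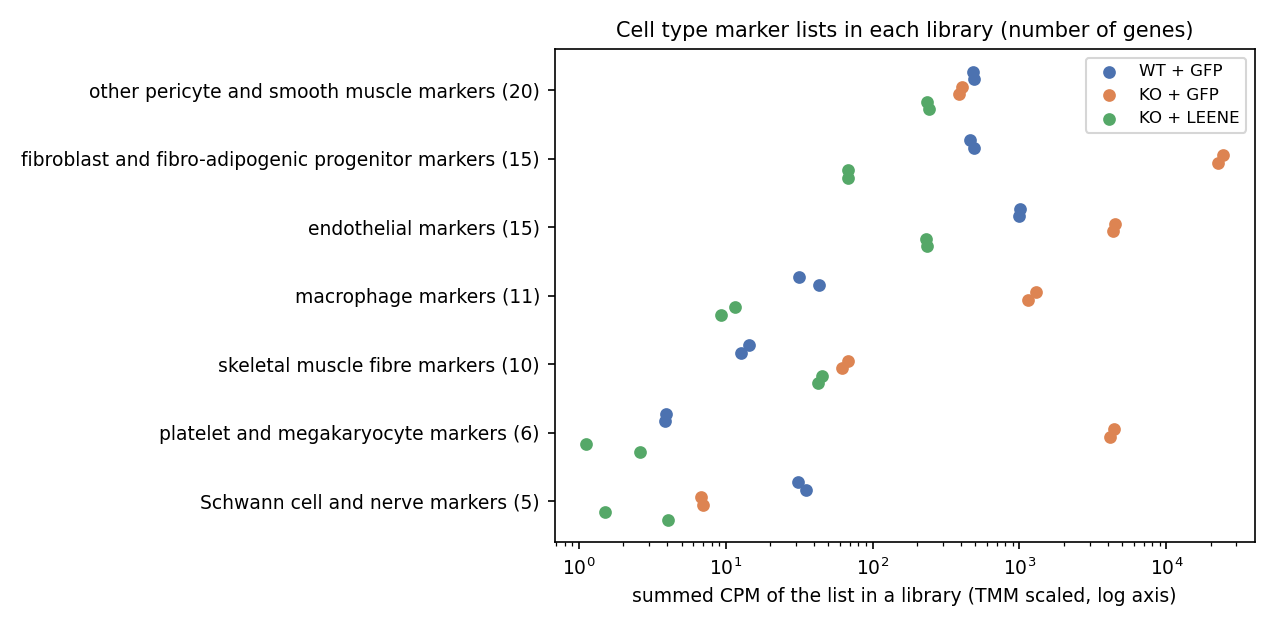
Summed level of each cell type marker list in each library, in CPM after TMM scaling on a log axis, with 1 point per library and the number of genes of each list in brackets. Fibroblast, endothelial, macrophage and platelet lists are highest in the KO + GFP libraries, the endothelial list mostly through Emcn and the platelet list through Pf4. Other pericyte and smooth muscle markers run from 485 to 492 in WT + GFP down to 233 to 241 in KO + LEENE, an order of the knockout groups that turns with library size only.

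With DEGs counted by direction for the marker lists, 5 of 8 tested fibroblast markers rose and 1 fell in KO + GFP against WT + GFP, and 1 rose and 5 fell in KO + LEENE against KO + GFP. Of 13 tested endothelial markers, 4 rose and 5 fell in the first of these contrasts, and 3 rose and 8 fell in the second. Among all genes, 34.2% were higher and 35.9% lower in the first contrast, and 32.8% were higher and 34.9% lower in the second, and the 9 of 13 endothelial DEGs of the first are near its background of 70.1%. In KO + LEENE against WT + GFP, where 33.9% of all genes were higher and 36.9% lower, 1 fibroblast marker rose and 2 fell, and 3 endothelial markers rose and 5 fell. These balances moved with library size only. Col3a1 and Dcn became called as higher (log2 fold change 1.14 and 0.88), and the call of Col1a1 as lower was lost. Pecam1 and Tie1 also became called as higher (0.37 and 1.63). Over the 3 contrasts in order, the 5 tested macrophage markers had 4, 0 and 1 higher and 1, 4 and 3 lower, and the 5 tested muscle fibre markers had 3, 2 and 2 higher and 1, 2 and 1 lower. All 3 tested Schwann cell markers fell in both contrasts with WT + GFP and 1 in the contrast of the knockout groups, and Pf4, the 1 platelet marker tested, rose in the first and fell in the others.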

How the data were processed

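Bulk RNA-seq of CD144-enriched cells was analysed in 6 libraries, 2 per group as given by the sample titles. The authors deposited raw read counts per gene. Per the file headers, uniquely aligned reads were counted with featureCounts 2.0.0 over exons of Ensembl release 84 on GRCm38, without strand, and reads copied from one molecule were not said to be merged, so intervals cover counting error only. The submitters' processing notes name bcl2fastq 2.18, STAR 2.5.4b and Subread 2.0.0. Libraries were made with a 3′ kit.

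Of 47729 genes, 43465 were named through a later GENCODE release. DEGs were called with edgeR 4.0.16 in R 4.3.3, by its quasi-likelihood test on all 6 libraries, with a mean per group, TMM, no covariates, filterByExpr (minimum count 10, minimum total 15) and Benjamini-Hochberg adjustment within a contrast over 8903 genes, at an adjusted P under 0.05. The SE is the log2 fold change divided by the root of F. Ratios of pooled reads have exact conditional 95% intervals, and shares have Wilson intervals. With 2 libraries per group an exact permutation P cannot go below 0.333, so none was run.

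The 9 genes and all gene lists were chosen with earlier results of these data known. From each list, the 4 genes of highest mean CPM were named, except for the platelet list, where only Pf4 was, and the Schwann cell list, where none was. Also named were the genes called where no more than 5 were called in a direction, and the 3 nearest profiles of each tested gene. Any other gene named was chosen after its values were seen. For lists of cell markers other than pericytes, called genes are given mainly as counts. Promoters are from RefSeq on GRCm38.p6. On counts simulated for KO + GFP against WT + GFP in 7775 genes, edgeR recovered 87% of 200 changed genes (70% at a log2 change of 1) with 5 false calls, and DESeq2 1.42.0 recovered 74%. The simulation left all other genes unchanged and gave every gene the same dispersion, whereas 67.8% to 70.7% of genes were called in the data. It therefore does not give the rate of false calls in these data.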

Additional observations from a re-analysis of the deposited data

How the results depend on the processing

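The alternatives were RLE size factors, library size only, mitochondrial genes left out, DESeq2, no filter, only the 4 libraries compared, the replicate number as a block, thinning to 1770992 reads, and leaving out each library. The count of 3 genes called in KO + GFP against WT + GFP was 5 with library size only, and 1 to 3 over the settings that left out a library, with 1 without the first KO + GFP library. Pdgfa and Pdgfra became called under library size only in that contrast (log2 fold change -0.80 and -0.65), as did Pdgfa in KO + LEENE against KO + GFP (1.39). Signs turned with library size only for Pdgfra, to 0.68 against KO + GFP and 0.033 against WT + GFP, and for Pdgfa against WT + GFP, to 0.60, which became called (adjusted P = 0.0177). The last was also 0.12 without the second WT + GFP library and 0.058 without the second KO + LEENE library, within -0.29 to 0.12 over the libraries left out. Pdgfra in KO + LEENE against KO + GFP was not called with DESeq2 (-0.45, adjusted P = 0.0788), without a filter (-0.34, adjusted P = 0.175) or after thinning (-0.15, adjusted P = 0.557). After thinning, ligand shares moved for Pdgfd to 0% in the first KO + GFP library, and for Pdgfa to 90% and Pdgfc to 5% in the second. The Pdgfb share, on 1 and 3 reads, went from 1.64% to 4.76% in the first and from 7.89% to 5% in the second. The causes were not tested. With the replicate block 6072, 5841 and 6147 genes were DEGs in the 3 contrasts and the members called stayed at 3, 4 and 3. Deviations of same-numbered libraries had correlations of 0.0306, 0.0138 and 0.0192, so the numbers were not taken to pair libraries. Rgs5 did not pass the filter in the fit on the 4 WT + GFP and KO + GFP libraries, nor Mcam in that on the 4 WT + GFP and KO + LEENE libraries. Depth limits Pdgfc, Pdgfd, Pdgfrb and Cspg4.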
